A study of Mus musculus with 6 samples.

Results

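Core islands are taken here as the captured autosomal stretches that hold 30 or more CpGs, the C-G dinucleotides at which mammalian DNA is methylated, and that have methylation calls in all 6 libraries. There were 8112 of them among 209687 captured regions, which is 4.57% of the 177443 autosomal regions with calls in every library. The islands were chosen on their CpG number, chromosome and completeness alone, so their methylation was not used in the choice. Another 66 regions with 30 or more CpGs lay on the X chromosome and were left out, and no autosomal one lacked calls. The name describes CpG number within a captured stretch of at most 500 bases and is not an annotation of CpG islands.

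The libraries came from colon epithelium of C57BL/6 mice, a common inbred strain, at 18 weeks of age, with 2 libraries in each of 3 groups. The AOM/DSS plus curcumin group received azoxymethane (AOM), a colon carcinogen, dextran sulfate sodium (DSS), which inflames the colon, and curcumin, a polyphenol of turmeric. The AOM/DSS group received the carcinogen and the inflaming agent alone, and the control group neither. Per the labels' protocol, the proximal segment and tumors were taken out before the epithelium was scraped from what was left of the colon, so the values describe remaining mucosa and not tumor tissue. Spins at low speed and washes were used to lower the number of blood cells. Nothing in the labels says whether a library stands for 1 mouse or several, or that replicates are separate mice, so the spread between replicates may be technical. The scraped cells could not be checked against epithelial, leukocyte or stromal markers, because the regions were not tied to genes in the build of the files.

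CpG islands are short stretches in which CpGs are frequent, and many lie at the starts of genes. In normal tissue most of them are kept free of methylation while most CpGs elsewhere are methylated. Exceptions known in mammals include imprinted islands, which are methylated on the allele from a single parent, and islands of germline genes and repeats, which are methylated in most body cells. Gain of methylation at islands, alongside loss outside them, is a known feature of colorectal cancer and of inflamed or aging gut.

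A region's level is the percentage of its calls that were methylated, a call being 1 reading of 1 CpG by 1 sequencing read. Differences between levels are given in percentage points. The islands spanned 155 to 500 bases with a median of 398, and held 30 to 77 CpGs with a median of 35. Their CpG density had a median of 9.13 CpGs per 100 bases, against 6.75 in autosomal regions with 20 to 29 CpGs and 4 over all captured regions. A library had 24682973 to 30727568 calls in all, of which 12.2% to 13.1% fell in the islands. The median island had 331 and 333 calls in the curcumin libraries, 377 and 371 in the AOM/DSS libraries, and 385 and 300 in the control libraries, so that 1 methylated call moved its level by 0.260 to 0.3333 points. Per CpG the islands were read less deeply than captured regions as a whole, with a median of 8.32 to 10.7 calls per CpG in the islands and 13.3 to 16.3 over all regions.

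The islands were almost all unmethylated in every group. The median level over islands was 1.31% and 1.28% in the curcumin libraries, 1.33% and 1.31% in the AOM/DSS libraries, and 1.30% and 1.29% in the control libraries. A level under 10% was found in 94.7% and 94.8% of islands in the curcumin libraries, 94.2% and 94.5% in the AOM/DSS libraries, and 94.8% and 94.9% in the control libraries. Averaged over the 6 libraries, 7687 islands (94.8%) were under 10%, and 7539 (92.9%) were under 10% in each library taken alone. The 20 captured mitochondrial regions, taken as a measure of low signal in the same libraries, had a pooled level of 1.01% and 0.999% in the curcumin libraries, 0.975% and 0.987% in the AOM/DSS libraries, and 0.956% and 0.991% in the control libraries. In each library the median island stood slightly above that level, and the part of incomplete bisulfite conversion in either value was not tested.

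Within the low range most islands were close together. By their mean over the 6 libraries, 2216 islands were under 1%, 3848 were at 1 to 2%, 1244 at 2 to 5% and 379 at 5 to 10%. A further 295 were at 10 to 50%, 77 at 50 to 80% and 53 at 80% or more. No methylated call at all was seen in 294 and 353 islands of the curcumin libraries, 257 and 254 of the AOM/DSS libraries, and 246 and 439 of the control libraries. The highest of these counts belonged to the control library with the fewest calls per island, and a count of 0 at a median depth of 300 calls still allows a level of up to about 1%. The 3 islands with the most CpGs were all low. They were chr10:79578448-79578937 with 77 CpGs and a mean level of 1.62%, chr8:15027840-15028323 with 73 CpGs and 1.26%, and chr9:103267411-103267877 with 70 CpGs and 1.34%. Positions are those of the deposited tables in build mm9, in which the first base may be counted from 0 or 1.

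The unmethylated share grew with CpG number and then levelled off. Regions with 3 to 5 CpGs were under 10% in 18.3% of cases, those with 10 to 14 CpGs in 43.4%, those with 20 to 24 in 83.7% and those with 25 to 29 in 90.1%. Among the islands it was 94.7% of the 6177 with 30 to 39 CpGs, 95.3% of the 1663 with 40 to 49 and 92.6% of the 272 with 50 to 77. At the boundary of the definition, the 998 islands with exactly 30 CpGs had a mean level of 4.58% and the 1052 regions with 29 CpGs, just outside it, had 6.99%.

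**Figure D1:**
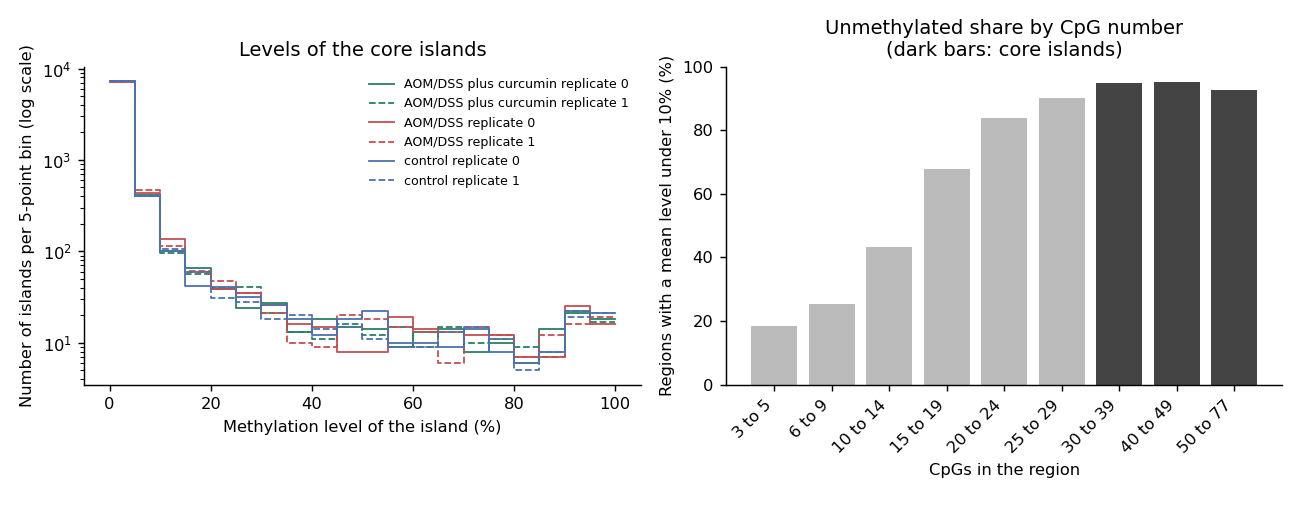
Left, number of core islands (log scale) per bin of 5 percentage points of methylation level, 1 line per library, coloured by group. Right, share of autosomal regions with a mean level under 10% by CpG number, dark bars for core islands. The first bin holds most islands in every library and a small second peak lies above 90%, and the share under 10% reaches 94.7% at 30 to 39 CpGs.

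Exceptions to the unmethylated state were few and mostly repeatable. In all, 425 islands (5.24%) averaged 10% or more, at 366 loci, where islands within 2000 bases of each other count as 1 locus. Of these 425, 324 were at 10% or more in each of the 6 libraries. At 50% or more there were 130 islands (1.60%), at 120 loci on 19 chromosomes, and 106 of them were at 50% or more in each of the 6 libraries. The number at 50% or more was 127 and 127 in the curcumin libraries, 133 and 133 in the AOM/DSS libraries, and 130 and 121 in the control libraries. The spread between libraries differed with the level. Counting error alone makes a percentage vary more at middle levels than at low or high ones, and its part was not separated here. The SD of an island over the 6 libraries had a median of 0.638 points among islands under 10%, 4.79 points at 50 to 80% and 1.49 points at 80% or more. The 56 islands between 40% and 60%, the range in which an island methylated on a single allele would fall, had a median SD of 4.95 points.

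The 10 highest islands averaged 96.7% to 98.6% and had 30 to 35 CpGs. The highest, chr3:148480437-148480932 with 30 CpGs, was at 98.0% and 98.6% in the curcumin libraries, 98.5% and 99.3% in the AOM/DSS libraries, and 99.01% and 98.3% in the control libraries. The island chr10:41916789-41917264 with 35 CpGs was at 99.04% and 97.0% in the curcumin libraries, 97.0% and 98.9% in the AOM/DSS libraries, and 99.2% and 97.1% in the control libraries. In all 10 the means of any pair of groups lay within 1.88 points. These islands were close to full methylation in colon epithelium of every group, with the groups overlapping at both islands given here.

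Highly methylated islands were partly grouped along the genome. Groups of 3 or more islands at 50% or more, each within 1 Mb of the next, occurred at 8 places. The largest were chr12:18142804-20318523, with 12 such islands among 24, and chr18:36924732-37926715, with 12 among 17. On chr4:145230582-146650224 it was 6 of 7 islands. On chr10:79138148-80796024, by contrast, the 6 highly methylated islands stood among 58 islands whose median level was 1.35%. Of the 1455 loci with several islands, 1355 had all islands under 10%, 34 had all at 10% or more and 66 were mixed. Since 94.8% of all islands were under 10%, most such loci would be all under 10% even if neighbours were unrelated. The count of 1355 alone therefore does not show that neighbouring islands are alike.

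Regions near highly methylated islands were themselves more methylated than those near unmethylated ones. Captured regions within 2000 bases had a mean level of 62.7% beside islands at 50% or more (217 regions), 40.2% beside islands at 10 to 50% (576 regions) and 18.6% beside islands under 10% (21008 regions, median 3.50%). The level climbed with distance from the nearest island in each library. In the AOM/DSS libraries it was 5.90% and 5.93% at 1 to 100 bases, 11.1% and 11.2% at 101 to 500 bases, 23.9% and 24.2% from there to 1000 bases, and 37.4% and 37.7% between 1000 and 2000 bases. Beyond 5000 bases it was 45.6% and 45.9%. The flanks hold fewer CpGs than the islands, with a median of 20 in the nearest class and 6 in the farthest, so CpG number falls as distance grows in this profile.

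AOM/DSS set against control shows the islands after carcinogen and inflammation together. The mean level over the 8112 islands was 3.75% and 3.74% in the AOM/DSS libraries, against 3.63% and 3.54% in the control libraries. Group means (± SD, n = 2) of 3.75% ± 0.00442 for AOM/DSS and 3.59% ± 0.0645 for control lay 0.160 points apart without overlap. In an exact permutation test over the 4 libraries the two-sided p was 0.3333, the smallest that 2 libraries against 2 can give, so no comparison of library means could reach 0.05. Islands at 10% or more numbered 467 and 449 in the AOM/DSS libraries, against 419 and 411 in the control libraries. Because each library mixes many cells, more methylated cells and more methylation per cell cannot be told apart.

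The higher mean of AOM/DSS was not made by the highly methylated islands alone. Islands whose mean over all libraries was under 10% averaged 1.80% and 1.81% in AOM/DSS, against 1.70% and 1.68% in control. Islands were then sorted by their level in the curcumin libraries, which take no part in this comparison. Those under 1% averaged 1.09% and 1.08% in AOM/DSS, against 1.11% and 1.08% in control, and the groups overlapped. At 1 to 2% the difference was 0.0491 points without overlap. Islands at 2 to 5% averaged 3.03% and 3.12% in AOM/DSS, against 2.73% and 2.70% in control, a difference of 0.360 points. It grew to 0.699 points among islands at 5 to 10% and to 1.96 points among those at 50 to 80%, each without overlap. At 10 to 50% it was 1.01 points, with AOM/DSS at 22.29% and 22.43%, against 22.27% and 20.42% in control. The groups barely missed overlap there, and control replicate 1 made most of the difference. At 80% or more the sign was opposite, with 91.5% and 90.5% in AOM/DSS, against 92.2% and 91.4% in control, a difference of -0.790 points with overlap. By CpG number, AOM/DSS was higher without overlap in each class, by 0.146 points in islands with 30 to 39 CpGs, 0.187 points with 40 to 49 and 0.326 points with 50 to 77.

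Along the chromosomes the pattern was broad, though all chromosomes were read in the same libraries. A shift of a whole library would recur on each, so counts of chromosomes, here and in the later comparisons, are not counts of replicates. On 13 of 19 autosomes both AOM/DSS libraries had a higher island mean than both control libraries, on none were both lower, and on 6 the groups overlapped. The chromosome means differed by -0.0310 points on chromosome 17 to 0.696 points on chromosome 12. The outlying value of chromosome 12 came from 57 islands at chr12:18142804-24486270, a span marked out after its values had been seen, which averaged 35.9% and 32.6% in AOM/DSS, against 31.1% and 30.2% in control. The other 371 islands of the chromosome differed by 0.253 points. Without these 57 islands, all islands together averaged 3.52% and 3.54% in AOM/DSS, against 3.44% and 3.35% in control, a difference of 0.136 points without overlap. The 17 islands at chr18:36924732-37926715 averaged 53.7% and 51.7% in AOM/DSS, against 50.3% and 50.6% in control, and 51.5% and 50.7% in the curcumin libraries.

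Other CpG-rich regions differed by about the same amount. In the 14536 autosomal regions with 20 to 29 CpGs, AOM/DSS averaged 9.28% and 9.32%, against 9.23% and 9.10% in control, or 0.136 points more. Island level minus the level of this class was 0.0238 points higher in AOM/DSS than in control, and the groups overlapped (exact permutation p = 0.6667). All autosomal regions other than the islands, averaged together, went the other way, at 42.0% and 42.3% in AOM/DSS, against 43.3% and 43.0% in control. Set against all other autosomal regions, the islands lay 1.11 points less far below in AOM/DSS than in control, without overlap (exact permutation p = 0.3333). An upward difference in AOM/DSS was therefore shared by CpG-rich regions on both sides of the 30-CpG boundary, while regions outside showed a downward one.

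In the profile by distance, the sign turned within 1000 bases of the islands. At 1 to 100 bases AOM/DSS was at 5.90% and 5.93%, against 5.81% and 5.69% in control, a difference of 0.169 points without overlap. At 101 to 500 bases the difference was 0.0956 points and the groups overlapped. Between 500 and 1000 bases AOM/DSS was at 23.9% and 24.2%, against 24.6% and 24.3% in control, a difference of -0.436 points. The difference widened to -0.630 points between 1000 and 2000 bases, -0.858 points between 2000 and 5000 bases and -1.07 points beyond, each without overlap. Averaged over all regions within 2000 bases the turn was hidden, with 19.4% and 19.6% in AOM/DSS, against 19.9% and 19.5% in control. The sign also turned with CpG number. Regions with 3 to 5 CpGs were at 52.6% and 53.0% in AOM/DSS, against 54.4% and 54.1% in control. Those with 20 to 24 were at 10.98% and 11.04%, against 10.97% and 10.81%. Median CpG number fell from 20 at 1 to 100 bases to 7 between 500 and 1000 bases, so distance and CpG number cannot be told apart.

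**Figure D2:**
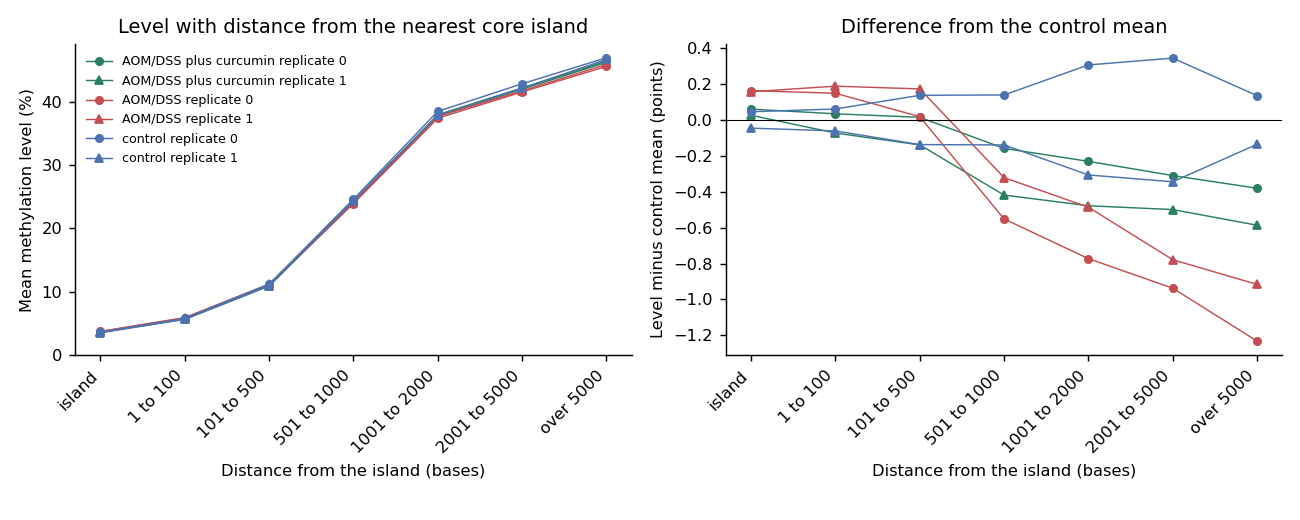
Left, mean methylation level (percent) of core islands and of captured regions by distance from the nearest island in bases, 1 line per library. Right, the same values minus the mean of the control libraries, in points. The AOM/DSS libraries lie above the control mean at the islands and at 1 to 100 bases and below it beyond 500 bases.

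Island by island, no difference passed. In edgeR's quasi-likelihood test, with Benjamini-Hochberg adjustment over all 179922 regions, an island counted as called when its adjusted p was under 0.05 and its group means differed by 10 points or more. In AOM/DSS against control 0 of 8112 islands were called, while 7 of all regions (0.00389%) were. The smallest adjusted p of an island was 0.179. At an unadjusted p under 0.05, edgeR gave 322 islands higher and 201 lower in AOM/DSS, which is 3.97% and 2.48% of islands, beside 2.73% higher and 3.62% lower over all regions. Limma on log2 ratios called 0 islands, while 27 were called by Fisher's exact test on calls summed within groups, which ignores the spread between replicates.

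Differences without overlap of 5 points or more were rare and mostly upward, while those of 10 points or more were rarer still and as often downward as upward. With both AOM/DSS libraries above both control libraries and a difference of at least 5 points there were 79 islands (0.974%), and with both below there were 26 (0.321%). Over all regions these shares were 6.02% and 12.1%. They are not a like background for losses, since 88.9% and 88.7% of islands in AOM/DSS and 89.9% and 90.01% in control were under 5%, where a fall of 5 points has no room. Nor are they a like background for gains, since regions as a whole were read less often. The median region had 96 to 118 calls in a library, against 300 to 385 for the median island. Wide gaps therefore arise more easily there by counting error, in either direction. Of the 26 lower islands, 1 was under 10% in control. With a difference of at least 10 points, 13 islands were higher and 13 lower, beside 1.98% and 5.08% over all regions. The 79 islands lay at 73 loci on 19 chromosomes, and 19 of them were in the 57-island span of chromosome 12, where 0 islands were lower by this measure. In control, 24 of the 79 were under 10%, 42 were at 10 to 50% and 13 at 50% or more. Their median difference was 6.80 points and the largest was 21.4.

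The 5 higher islands with the smallest p in this comparison, none of which passed, ranged from low to intermediate levels. The island chr7:90017517-90017933, with 33 CpGs, was at 36.7% and 45.5% in AOM/DSS, against 22.9% and 18.98% in control. That makes 41.1% ± 6.20 for AOM/DSS and 20.95% ± 2.79 for control (± SD, n = 2 each), a difference of 20.2 points (edgeR unadjusted p 0.000172, adjusted p = 0.340). The curcumin libraries were at 23.6% and 21.8%, near the controls. On the side of lower coordinates, the 4 regions within 2000 bases that had calls in all libraries were under 3% in every library. On the other side, the region 16 bases away was at 57.7% and 61.9% in AOM/DSS, against 62.2% and 37.1% in control, and the next with calls in all libraries, 943 bases away, was above 91% in each. The island thus sits where an unmethylated stretch meets a methylated one.

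At chr11:29724732-29725164, with 43 CpGs, 21 of 505 and 22 of 641 calls were methylated in AOM/DSS, against 4 of 647 and 4 of 493 in control. The levels were 4.16% and 3.43% in AOM/DSS, against 0.618% and 0.811% in control (edgeR adjusted p = 0.187), and 0.403% and 0.607% in the curcumin libraries. The AOM/DSS libraries stood clear of the other 4. Its nearest neighbours with calls in all libraries were at 31.9% and 44.6% in AOM/DSS, against 46.4% and 42.5% in control, 112 bases before it, and at 8.75% and 14.5% in AOM/DSS, against 3.25% and 6.74% in control, 126 bases after it. In the curcumin libraries the second of these neighbours was at 17.5% and 10.8%, above control, unlike the island.

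At chr9:81757149-81757611 the AOM/DSS libraries were at 4.14% and 5.65%, against 0.294% and 0.901% in control. The island chr12:23094586-23094986, inside the chromosome 12 span and with 54 CpGs, was at 13.4% and 11.2% in AOM/DSS, against 7.88% and 6.49% in control. The smallest adjusted p belonged to chr14:7119548-7119917, at 1.97% and 2.12% in AOM/DSS, against 0.547% and 1.00% in control (edgeR adjusted p = 0.179), a difference of 1.27 points on 2200 to 2741 calls per library. At these 3 islands the AOM/DSS and control libraries did not overlap.

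Of the 5 lower islands with the smallest p, the first 2 also had uneven depth. At chr16:11144125-11144474 AOM/DSS was at 17.7% and 14.6%, against 25.7% and 33.5% in control (edgeR adjusted p = 0.389), on 2723 and 3222 calls in AOM/DSS, against 837 and 239 in control. At chr5:147072557-147072918 it was at 26.6% and 18.9% in AOM/DSS, against 44.0% and 36.0% in control (edgeR adjusted p = 0.416), on 903 and 1647 calls in AOM/DSS, against 393 and 317 in control. Both belong to 8 islands whose depth, scaled to the library, differed most between libraries, by a factor of 4.99 to 13.2 against a median of 1.48 over the islands. All 8 were read more deeply in each AOM/DSS and curcumin library than in either control library, all had mean levels of 19.3% to 28.2%, and in 7 both AOM/DSS libraries were below both control libraries. The list was cut at 8 after the values had been seen, so this likeness depends in part on the cut. The next island in the ranking, at a factor of 4.41, was not deeper in every treated library. Its mean level was 6.80%, and both AOM/DSS libraries were above both control libraries. Several of the 8 adjoin one another at chr17:39983362-39985251, within the stretch of very deep islands described below. They do not count as separate loci. The part of depth in these differences was not tested.

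The other 3 lower islands were at low levels. They were chr5:23218103-23218471, at 1.57% and 0.587% in AOM/DSS, against 2.28% and 6.29% in control. Next came chr12:18616950-18617310, at 1.44% and 1.42% in AOM/DSS, against 2.42% and 3.58% in control. The last was chr18:11054058-11054334, at 0 of 429 calls, which allows up to 0.699%, and 0.330% in AOM/DSS, against 3.29% and 1.12% in control. The largest of these control values rested on 50 of 795 calls, and none of the 3 islands passed the test.

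Ranked by size alone, chosen after the values were seen, the following 3 were among the islands with the largest differences. The island chr4:148265088-148265531 was at 65.6% and 53.4% in AOM/DSS, against 40.3% and 35.9% in control, and at 50% and 61.2% in the curcumin libraries. The island chr15:79659100-79659499 was at 25.9% and 26.3% in AOM/DSS, against 51.8% and 40.1% in control, and at 53.5% and 41.7% in the curcumin libraries. At chr11:62374154-62374627 the AOM/DSS libraries were at 7.06% and 12.03%, against 13.7% and 39.7% in control, so that 1 control library made most of the difference of -17.2 points. Without control replicate 0 the difference was -30.2 points and edgeR called the island (adjusted p = 0.0342, against 0.0551 to 0.920 under the other edgeR alternatives), and without control replicate 1 it was -4.15 points. Each of these fits has 1 control library, which is assumed to vary like the libraries of the other groups.

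**Figure D3:**
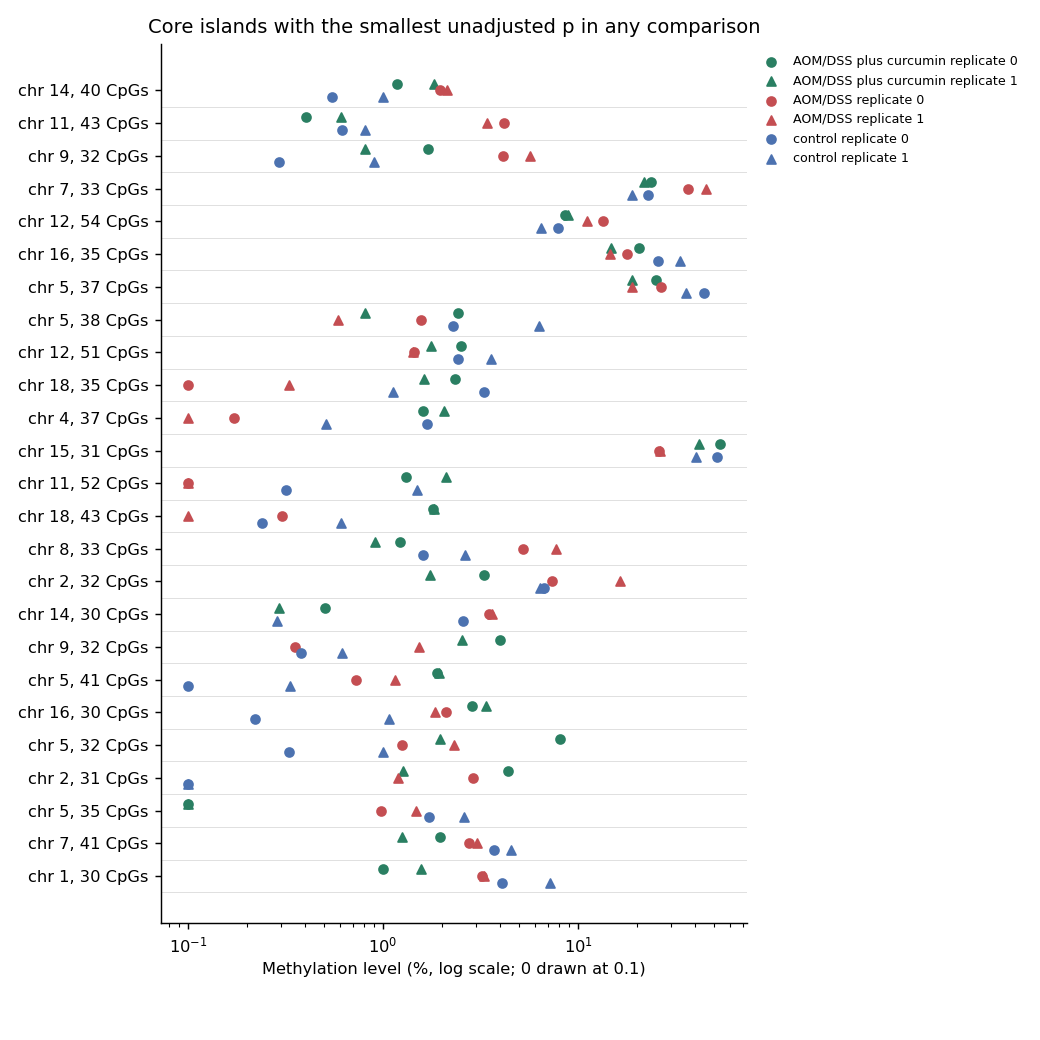
Methylation level (percent, log scale, with 0 drawn at 0.1) of 25 core islands, the 5 with the smallest unadjusted edgeR p in each comparison and direction with repeats drawn once, 1 row per island named by chromosome and CpG number. Points are single libraries, with circles for replicate 0, triangles for replicate 1 and colours for groups. Most of these islands lie under 10%, and the groups that differ in a comparison do not overlap within their row.

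AOM/DSS plus curcumin was next set against AOM/DSS, which shows the islands of treated mice with and without curcumin. This comparison shares its AOM/DSS libraries with the first, so opposite signs in both are not independent of each other. The mean over islands was 3.65% and 3.61% with curcumin, compared with 3.75% and 3.74% in AOM/DSS, and differed by -0.117 points without overlap (exact permutation p = 0.3333). Islands at 10% or more numbered 428 and 421 with curcumin, compared with 467 and 449 in AOM/DSS.

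By level in the control libraries, which are outside this comparison, islands at 2 to 5% averaged 2.85% and 2.90% with curcumin, compared with 3.05% and 3.16% in AOM/DSS. At 5 to 10% they averaged 6.90% and 6.73% with curcumin, compared with 7.36% and 7.28% in AOM/DSS, or -0.507 points. The difference was -0.753 points among islands at 10 to 50% and -0.642 points among those at 50 to 80%, all without overlap. Under 1% and at 80% or more the groups overlapped. On 10 chromosomes both curcumin libraries were below both AOM/DSS libraries, on 1 (chromosome 19) both were above, and on 8 the groups overlapped.

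Here too the CpG-rich regions outside the islands were lower by a like amount. In the class of 20 to 29 CpGs the level was 9.22% and 9.13% with curcumin, compared with 9.28% and 9.32% in AOM/DSS, which is -0.123 points apart. Island level minus the level of that class was 0.00547 points higher with curcumin than in AOM/DSS, with overlap (exact permutation p = 0.6667). Next to the islands, at 1 to 100 bases, the level was 5.78% and 5.67% with curcumin, compared with 5.90% and 5.93% in AOM/DSS. Beyond 5000 bases it was 46.4% and 46.2% with curcumin, compared with 45.6% and 45.9% in AOM/DSS, which is 0.591 points in the opposite direction.

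**Figure D4:**
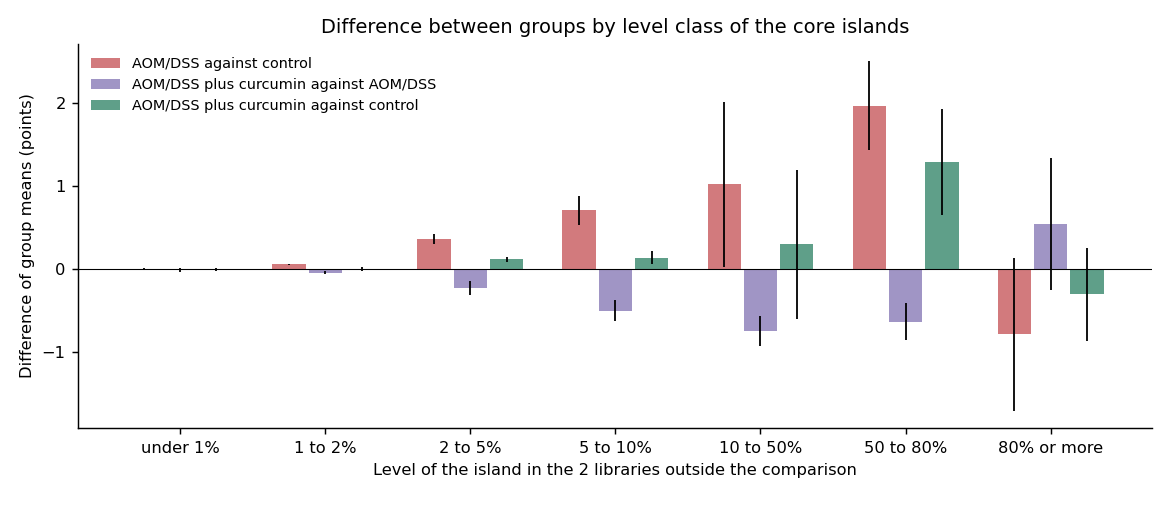
Difference of group means in percentage points by level class of the core islands, for the 3 comparisons, with classes set by the libraries outside each comparison. Bars are differences of means over islands and black lines run from the smallest to the largest difference between single libraries. Lines that stay on 1 side of 0, as for AOM/DSS against control from 1 to 2% up to 50 to 80%, mark groups that do not overlap.

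No island passed edgeR's test in curcumin against AOM/DSS, where 0 of 8112 islands and 0 of all regions (0%) were called and the smallest adjusted p of an island was 0.302. At an unadjusted p under 0.05, edgeR gave 191 islands higher and 246 lower with curcumin, or 2.35% and 3.03%, beside 2.56% and 2.69% over all regions. Limma called 0 islands and Fisher's exact test 17. Without overlap and by at least 5 points, 30 islands (0.370%) were higher and 58 (0.715%) lower, beside 10.2% and 6.75% over all regions. The low level of most islands leaves little room for losses here too, and the lower depth of regions as a whole again makes them an unlike background in both directions.

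The lower islands with the smallest p included both chr11:29724732-29725164 and chr7:90017517-90017933, whose values are given above. Their differences were -3.29 points (edgeR adjusted p = 0.302) and -18.4 points (edgeR adjusted p = 0.765). At chr8:124859719-124860029 curcumin was at 1.23% and 0.912%, against 5.19% and 7.67% in AOM/DSS, with the control libraries at 1.60% and 2.64%. At chr2:24534526-24534826 curcumin was at 3.28% and 1.74%, against 7.37% and 16.5% in AOM/DSS. At chr14:15178450-15178817 it was at 0.505% and 0.293%, against 3.51% and 3.62% in AOM/DSS. In each the curcumin libraries lay below both AOM/DSS libraries, and none passed the test.

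Among the higher islands, chr15:79659100-79659499 was at 53.5% and 41.7% with curcumin, compared with 25.9% and 26.3% in AOM/DSS (difference 21.4 points, edgeR adjusted p = 0.874). The other 4 were under 3% in all libraries but one. At chr11:6375328-6375772 curcumin was at 1.31% and 2.10%, against 0 of 298 and 0 of 226 calls in AOM/DSS, which allow up to 1.01% and 1.33%. At chr4:119094500-119094926 it was at 1.61% and 2.05%, against 0.172% and 0 of 387 calls in AOM/DSS, which allows 0.775%. At chr18:33954454-33954921 it was at 1.79% and 1.83%, against 0.302% and 0 of 345 calls in AOM/DSS, which allows 0.870%. At chr18:11054058-11054334 it was at 2.34% and 1.62%, against 0 of 429 calls and 0.330% in AOM/DSS. Such differences amount to a handful of methylated calls per library.

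Between AOM/DSS plus curcumin and control, which share their libraries with the comparisons above, the mean over islands was 3.65% and 3.61% with curcumin, against 3.63% and 3.54% in control. The difference was 0.0431 points and the groups overlapped (exact permutation p = 0.6667). Islands at 50 to 80% in AOM/DSS, the group outside this comparison, averaged 64.1% and 63.7% with curcumin, against 63.1% and 62.2% in control, a difference of 1.28 points without overlap. Smaller differences without overlap, of 0.112 and 0.131 points, were seen at 2 to 5% and at 5 to 10%. Under 2%, at 10 to 50% and at 80% or more the groups overlapped. Both curcumin libraries were above both control libraries on 5 chromosomes, below them on 1 and overlapped with them on 13. Relative to regions with 20 to 29 CpGs island level was 0.0293 points higher with curcumin than in control, with overlap (exact permutation p = 0.6667).

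**Figure D5:**
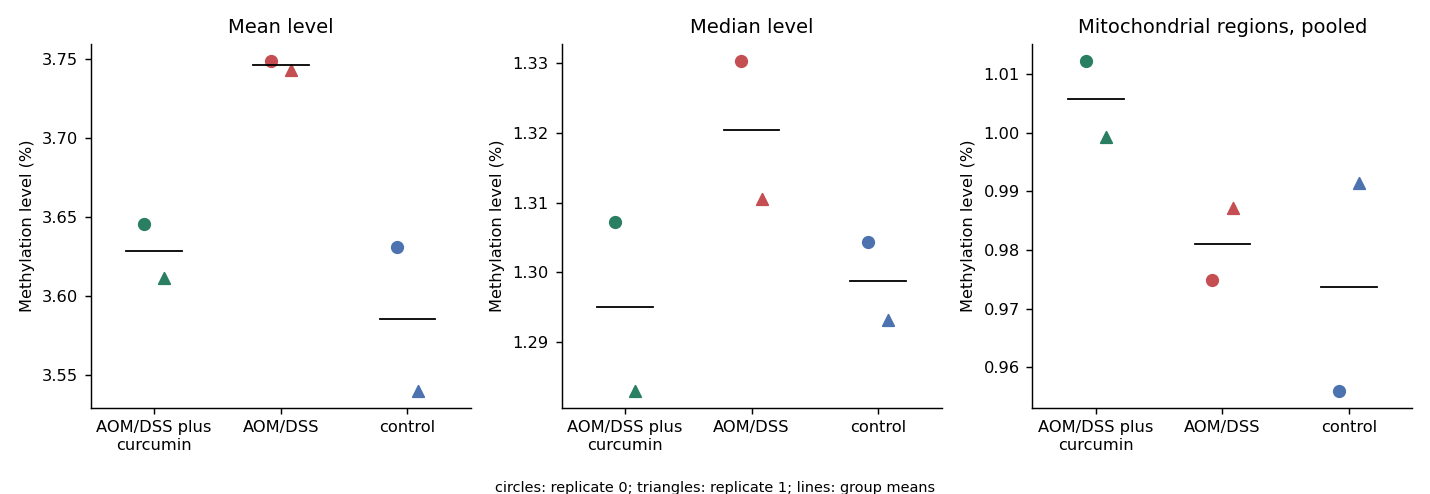
Mean and median methylation level over the 8112 core islands and pooled level of 20 mitochondrial regions, in percent, for each library by group. The axes do not start at 0. The AOM/DSS libraries, at 3.75% and 3.74%, lie above the other 4 in the mean, and the mitochondrial level does not follow the same order.

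In this comparison too edgeR called 0 of 8112 islands and 0 of all regions (0%), limma called 0 and Fisher's exact test 12. At an unadjusted p under 0.05, edgeR gave 239 islands higher and 209 lower with curcumin, or 2.95% and 2.58%, beside 1.83% and 2.34% over all regions. By at least 5 points without overlap, 38 (0.468%) were higher and 26 (0.321%) lower, beside 5.83% and 8.39% over all regions. That background is unlike the islands in level and depth, as above.

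The higher islands with the smallest p were all under 10%. At chr9:75406875-75407256 curcumin was at 3.97% and 2.53%, against 0.380% and 0.613% in control. At chr16:16829126-16829624 it was at 2.85% and 3.38%, against 0.221% and 1.08% in control. At chr2:152857963-152858281 it was at 4.37% and 1.27%, against 0 of 157 and 0 of 252 calls in control, which allow up to 1.91% and 1.19%. The others were chr5:123507818-123508221, at 1.90% and 1.93% with curcumin, against 0 of 463 calls, which allows 0.648%, and 0.332% in control, and chr5:31553878-31554233, at 8.04% and 1.96% with curcumin, against 0.329% and 1.00% in control. All 5 had an adjusted p of 1 in edgeR.

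The lower islands began with the pair of uneven depth. At chr5:147072557-147072918 curcumin was at 24.96% and 18.8%, against 44.0% and 36.0% in control, on 1234 and 2501 calls with curcumin, against 393 and 317 in control. At chr16:11144125-11144474 it was at 20.4% and 14.8%, against 25.7% and 33.5% in control, on 2010 and 3501 calls with curcumin, against 837 and 239 in control. Among the rest, chr5:135662989-135663366 had 0 of 220 and 0 of 275 methylated calls with curcumin, which allow up to 1.36% and 1.09%, against 1.71% and 2.60% in control. At chr7:88489439-88489931 curcumin was at 1.96% and 1.26%, against 3.72% and 4.51% in control, and at chr1:42755194-42755511 it was at 0.995% and 1.57%, against 4.07% and 7.17% in control. None of the 5 passed.

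A few islands were read far more often than the rest. In 14 islands some library had more than 5000 calls, and these held 8.38% to 9.94% of all island calls. Of the 14, 10 lay at chr17:39979946-39985767, with up to 200 times the median island depth and levels of 15.01% to 26.5%. Their mean was 20.01% and 19.8% in the curcumin libraries, 18.3% and 19.1% in the AOM/DSS libraries, and 21.996% and 19.2% in the control libraries. Both AOM/DSS libraries were below both control libraries here, against the direction of the islands as a whole. Another 2 lay at chr11:3092905-3093900, at means of 75.1% and 78.1%. Pooling calls over all islands gives these 14 much weight. The pooled level was 5.78% and 5.83% in the curcumin libraries, 5.82% and 5.67% in the AOM/DSS libraries, and 5.56% and 5.36% in the control libraries. Without the 14 it was 4.06% and 4.06% in the curcumin libraries, 4.22% and 4.14% in the AOM/DSS libraries, and 3.93% and 3.86% in the control libraries, which has the order of the unweighted means.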

How the data were processed

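Per the labels, bisulfite libraries were enriched by SureSelectXT Mouse Methyl-Seq capture (Agilent). The submitters' processing notes name Bismark 0.15.0, ChIPseeker 1.10.3, R 3.4.0 and build mm9, without saying what each did. The authors deposited counts for each library: the number of CpGs per region, of methylation calls and of methylated calls. No deposited value rests on fewer than 20 calls, and blanks were taken as missing. The sources used here do not give whether duplicates were removed or how regions were drawn. Calls of 1 read are not independent, and limits from a count of 0 (3 calls of the total) cover counting error only.

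Levels were averaged over islands with equal weight. EdgeR 4.0.16 in R 4.3.3 fitted methylated and unmethylated counts of 179922 regions complete in all 6 libraries, with 1 coverage coefficient per library and 1 methylation coefficient per group, and p-values were adjusted by Benjamini-Hochberg over all of them. Scripts were tested on simulated data. Limma 3.58.1 and Fisher's exact test were alternatives. Library means were compared by exact permutation tests, two-sided. Named islands are, per comparison and direction, the 5 with the smallest p, besides the 10 highest and the 3 with most CpGs. Islands with the largest differences without overlap were added after their values were seen. Members and lists were chosen with earlier results of these data known. Nothing in the labels says that same-numbered replicates pair. Correlations of their deviations over all regions were 0.0548 (AOM/DSS and control), 0.00754 (curcumin and AOM/DSS) and 0.0121 (curcumin and control). Over the islands they were 0.107, -0.0423 and 0.103. These low values do not settle whether replicates pair, and a fit with the replicate number as a block is given below. Gene lists and sequences were not used, because the gene tables at hand belong to another build. Other tools were Python 3.11.15, numpy 2.4.6 and pandas 2.3.3.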

Additional observations from a re-analysis of the deposited data

Results flagged for a closer look

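Small differences without overlap were also seen in data outside the 8112 islands. In the 66 islands of the X chromosome the median level was 1.64% and 1.76% in the curcumin libraries, against 1.45% and 1.57% in the control libraries, a difference of 0.194 points without overlap (exact permutation p = 0.3333). Their mean overlapped between these groups, at 11.8% and 12.6% in the curcumin libraries, against 11.9% and 12.6% in the control libraries. In the 20 mitochondrial regions the pooled level was 1.01% and 0.999% in the curcumin libraries, against 0.956% and 0.991% in the control libraries, a difference of 0.0321 points (exact permutation p = 0.3333), on 79722 and 75858 calls in the curcumin libraries, against 112977 and 49225 in the control libraries. Their part in the differences at autosomal islands was not tested.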

How the results depend on the processing

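With 2 libraries a group, depth and number limit every statement. The difference in mean island level kept its sign in AOM/DSS against control under every alternative run. Without 1 library it was 0.115 to 0.206 points, where groups that do not overlap fix the sign in advance. Its size depended on the summary, at 0.0217 for the median, 0.286 pooled and 0.285 pooled without the deep islands. In curcumin against AOM/DSS it kept its sign (-0.134 to -0.100 without 1 library, again fixed in advance) except for the pooled level, at 0.0598 points, which deep islands carry. In curcumin against control it was -0.00365 for the median and between -0.00251 (without control replicate 1) and 0.0887 without 1 library, while the pooled level gave 0.346 and, without the deep islands, 0.162, both without overlap. Islands minus regions of 20 to 29 CpGs changed sign often. For AOM/DSS against control it was -0.0540 for medians, -0.0222 with only islands under 10% and -0.00191 to 0.0496 without 1 library (lowest without AOM/DSS replicate 0). For curcumin against AOM/DSS it was -0.0182 from 25 CpGs, -0.0131 from 40 CpGs and -0.0207 to 0.0316 without 1 library (-0.0207 without curcumin replicate 1, -0.0203 without AOM/DSS replicate 1). For curcumin against control it was -0.0125 for medians. Flanks within 2000 bases, curcumin against AOM/DSS, were at -0.0707 with 50 calls, -0.0517 around islands of 40 CpGs and -0.0814 to 0.110 without 1 library (-0.0814 without curcumin replicate 0, -0.0752 without AOM/DSS replicate 0). The cause of these changes was not tested.

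Fisher's exact test called 27, 17 and 12 islands in AOM/DSS against control, curcumin against AOM/DSS and curcumin against control. EdgeR called 0 to 1 without 1 library in the first (1 without control replicate 0) and 0 in the others. Counts without overlap moved with the minimum difference, which sets them. In the same order, higher and lower islands numbered 322 and 129, 125 and 282, 186 and 143 at 2 points, and 13 and 13, 9 and 6, 6 and 8 at 10 points. From 25 CpGs they were 158 and 79, 71 and 120, 90 and 71, and from 40 CpGs 21 and 2, 1 and 15, 7 and 5. Without 1 library, where fewer libraries must agree, they were 94 to 133 and 45 to 74, 50 to 73 and 86 to 113, 60 to 103 and 51 to 69. Islands under 10% numbered 13156 from 25 CpGs and 1837 from 40 CpGs, and those at 50% or more 414 and 21. Alternatives chosen after seeing the data were those without the 14 deep islands, the chromosome 12 span or the 8 islands of uneven depth, without which 79 were higher and 23 lower in AOM/DSS than in control.

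With the replicate number as a block, edgeR called 0 islands in each comparison and 41 of all regions in AOM/DSS against control, where it called 7 without the block. The smallest adjusted p of an island in edgeR was then 0.0258, at chr14:7119548-7119917 with its 1.27 points, against 0.179 at the same island without the block. Of 755 alternatives for named islands, 724 kept direction and side of the threshold, 31 gained a call (30 by Fisher's test) and 0 reversed. That 0 was fixed in advance, since every model used the same levels and groups without overlap keep their sign without 1 library.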
